A study of Homo sapiens with 20 samples.

Results

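The histone variant genes followed here through erythroid differentiation were 8: H1-10, H2AZ1, H2AZ2, H2AX, H2AJ, MACROH2A1, H3-3A and H3-3B. They were chosen by name, as histone variant genes whose mRNA ends in a poly(A) tail and that lie outside the histone gene clusters. All 8 were found among the 46425 genes of the deposited tables. The cells were HUDEP-2, an immortalized line of erythroid progenitors made from umbilical cord blood, labelled wild type on every day. In this line doxycycline keeps the immortalizing transgenes switched on, and a single line stands for all cells here. D0 cells were grown in expansion medium with erythropoietin (EPO), stem cell factor (SCF) and doxycycline, the hormone, cytokine and inducer that the cells depend on. The study's methods add dexamethasone, a glucocorticoid, to this medium and list none in the differentiation medium, while the labels name none in either. Cells of D1 to D8 and D12 were in a differentiation medium with human serum, holo-transferrin, insulin and heparin, which kept EPO throughout, lost SCF at day 6 and lost doxycycline at day 8. The study places proerythroblasts (Pro-E) at D0, early and late basophilic erythroblasts (EB/LB) at D4 to D6, polychromatic erythroblasts (Poly) at D8 and orthochromatic erythroblasts with reticulocytes (Ortho) at D12.

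Messenger RNA was sequenced with a poly(A)-selecting stranded kit in 2 libraries on each of the 10 days. Of the 2, a table that spans all days holds 1, called the full-course library here, and separate tables for D0 to D6, D7 and D8, and D12 hold the other, called the split-table library. The 20 libraries held 52131713 to 70358198 counts, with a median of 61806912. The lowest count of any of the 8 genes in any library was 705, for H1-10. The study describes its libraries of D0 and D8 as biological replicates, and p-values measure the spread between these libraries. A further set of D0 columns, with other values, stands beside D12 in its split table and was not used, and which of the D0 columns belong to the 2 labelled D0 samples is not given in the sources used here. In a bulk sample, fewer cells of a type and less RNA per cell cannot be told apart.

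Nucleosomes wrap DNA around pairs of H2A, H2B, H3 and H4, and H1 binds the linker. Most histone mRNA comes from clustered genes that are expressed in S phase and whose mRNA ends in a stem-loop in place of a poly(A) tail. Variant genes are expressed outside S phase as well, from polyadenylated mRNA, and their proteins replace the canonical ones at chosen places: H3.3 at active genes and heterochromatin, H2A.Z around transcription start sites, macroH2A in silent chromatin, and H2A.X as the substrate that is phosphorylated at DNA breaks. Erythroblasts condense and expel the nucleus.

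The 3′ hairpin that separates these mRNA classes is shown first, because poly(A) selection is meant to keep mRNA that carries a tail. It was searched in the annotated transcripts as a 6-base stem that starts with GG, a 4-base TTTN loop and the complementary stem. It was found in 61 of 66 clustered histone genes, in 97 of 19676 protein-coding genes (0.493%) and in 1 of the 8 variant genes, H2AX, which is known to make both a stem-loop and a polyadenylated mRNA. In H2AX the hairpin lies at bases 553 to 568 of a 1592-base transcript whose coding region ends at base 503. The 3 sequences below are printed 5′ to 3′ with the 16 bases of the hairpin in capitals, next to those of 2 clustered genes, H1-2 and H2BC12.
H2AX (chromosome 11): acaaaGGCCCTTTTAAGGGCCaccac
H1-2 (chromosome 6): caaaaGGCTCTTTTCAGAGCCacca
H2BC12 (chromosome 6): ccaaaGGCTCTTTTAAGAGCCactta

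H3-3A and H3-3B encode the same protein, H3.3, from different coding sequences, and their mRNAs took different courses in these data, so their sequences are shown as well. The 411 coding bases of the 2 genes differ at 88 positions (78.6% identity without gaps). Over the same 411 bases the processed pseudogene H3P6 is identical to H3-3A (100%) and H3P16 differs from it at 3. Reads of H3-3A inside that stretch cannot be told from H3P6 by sequence, nor from H3P16 unless they cover a base that differs. Every value of H3-3A is therefore uncertain. H3-3B differs from H3P6 at 88 and from H3P16 at 91 of the 411 bases. Possible copies of H3-3B itself were not compared, so its own values were not shown to be free of this doubt. The first 90 coding bases are printed with the 21 bases of H3-3B that differ from H3-3A in capitals.
H3-3A (chromosome 1): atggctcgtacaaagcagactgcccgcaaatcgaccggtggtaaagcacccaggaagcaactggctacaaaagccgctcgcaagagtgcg
H3P6 (chromosome 2): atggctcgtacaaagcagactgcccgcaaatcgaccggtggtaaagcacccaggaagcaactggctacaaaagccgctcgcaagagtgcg
H3-3B (chromosome 17): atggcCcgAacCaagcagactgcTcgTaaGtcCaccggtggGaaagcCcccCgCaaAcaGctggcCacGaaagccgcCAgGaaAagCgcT

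The stretches just upstream of the transcription starts differ too. The 250 bases before the start (RefSeq, GRCh38.p14) are printed 5′ to 3′ on the strand of the gene for the H3.3 pair and for H2AZ1, the most abundant of the 8 genes at D0. Capitals mark the CCAAT box, searched as CCAAT on both strands (ATTGG on the other), and the TATA box, searched as TATAAA on the strand of the gene.
H3-3B (chr17:75779780-75780029, minus strand): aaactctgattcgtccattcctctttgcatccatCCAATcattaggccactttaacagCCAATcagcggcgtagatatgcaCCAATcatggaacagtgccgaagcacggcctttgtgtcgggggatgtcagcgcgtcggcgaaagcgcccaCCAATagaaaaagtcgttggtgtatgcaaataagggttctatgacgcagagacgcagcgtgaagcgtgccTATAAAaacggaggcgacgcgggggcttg
H3-3A (chr1:226062466-226062715, plus strand): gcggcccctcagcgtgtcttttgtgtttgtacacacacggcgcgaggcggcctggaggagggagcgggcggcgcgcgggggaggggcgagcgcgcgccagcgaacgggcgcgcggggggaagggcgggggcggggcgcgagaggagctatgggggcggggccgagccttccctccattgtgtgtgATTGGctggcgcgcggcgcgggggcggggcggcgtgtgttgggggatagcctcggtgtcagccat
H2AZ1 (chr4:99950276-99950525, minus strand): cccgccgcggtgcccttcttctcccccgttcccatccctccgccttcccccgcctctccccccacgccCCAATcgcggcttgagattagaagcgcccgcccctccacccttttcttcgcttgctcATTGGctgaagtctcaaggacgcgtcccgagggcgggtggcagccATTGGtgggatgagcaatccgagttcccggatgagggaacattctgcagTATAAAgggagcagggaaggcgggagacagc
H3-3B holds 4 CCAAT boxes and 1 TATA box, H2AZ1 holds 3 and 1, and H3-3A holds 1 CCAAT box and no TATA box. Of its 250 bases 75.2% are G or C, against 52.4% in H3-3B. In windows from 250 bases before to 50 after the start, CCAAT was found in 6 of the 8 genes, with 3 or more copies in 5. Of 35116 promoters 34.6% held it, and 3.26% held 3 or more. TATAAA was found in 4 of the 8 and in 7.33% of all promoters. Both boxes together were found in 3 of the 8, in 2.89% of all promoters and in 50.8% of the 65 promoters of clustered histone genes. A match to these letters is a description of the sequence and not a site that was shown to be used.

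Levels are given in TPM, a read density per transcript length that sums to the same total in each library, and 2 values joined by "and" are those of the full-course and the split-table library. H2AZ1 (862 and 846 TPM), H3-3A (555 and 547) and MACROH2A1 (304 and 294) led at D0. H3-3B (162 and 154), H2AZ2 (134 and 95.2) and H2AX (96.0 and 173) followed, and H1-10 (24.1 and 31.9) and H2AJ (8.16 and 11.5) were lowest. The summed level of the 8 genes was 2145 and 2153 TPM at D0, 1919 and 1837 TPM at D8 and 397 and 519 TPM at D12. By D12 the order had changed: H3-3A (172 and 218 TPM) and H3-3B (111 and 137) came first, and H2AZ1 was at 28.9 and 41.2 TPM.

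What a level is measured against matters at the end of the course, because globin mRNA fills the libraries. Globin genes took 2.90% and 2.91% of the TPM at D0, 25.3% and 30.1% at D8 and 63.0% and 59.4% at D12. TPM therefore states a gene's share of all mRNA, globin included, whereas the TMM scaling of edgeR, used for the tests, centres on the bulk of the genes. The median log2 change of all genes tested was -0.01 in edgeR for D8 against D0 and -0.44 on the log2(TPM + 1) scale, and for D12 against D0 it was -0.29 and -1.12. For D8 against D4 to D6 the TPM-scale median was -0.23, and for D12 against D8 the 2 medians were -0.20 and -0.68. Of all genes called, the percentage that was higher was 44.5 by edgeR and 24.4 by limma on TPM for D4 to D6 against D0, 45.6 and 14.7 for D8 against D0, 52.4 and 11.8 for D8 against D4 to D6, 41.6 and 13.5 for D12 against D8, and 43.5 and 13.4 for D12 against D0. The fold changes described below are accordingly given on both scales where the direction differs.

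Days were compared with edgeR's quasi-likelihood test over all genes, with a Benjamini-Hochberg adjusted p under 0.05 called. From D0 to D4 to D6, 1 of the 8 genes was higher and none lower, where 7.38% of all 16784 genes tested were higher and 9.22% lower. From D0 to D8, 3 were higher and none lower, against 11.5% and 13.7% of 14829 genes. From D4 to D6 to D8, 3 were higher and none lower, against 11.9% and 10.8%. From D8 to D12, 1 was higher and 3 lower, against 23.8% and 33.4%, and from D0 to D12, 4 were higher and 3 lower, against 29.7% and 38.5%. On the TPM scale limma called 1 of the 8 higher and none lower for D4 to D6 against D0 (4.53% and 14% of all genes), 1 higher and 2 lower for D8 against D0 (5.01% and 29%), none higher and 3 lower for D8 against D4 to D6 (4.14% and 31.1%), none higher and 6 lower for D12 against D8 (8.38% and 53.6%), and none higher and 5 lower for D12 against D0 (10.1% and 65.7%). H3-3A was called in both fits for D12 against D0 and in opposite directions, higher by edgeR (0.53) and lower by limma on TPM (-1.51, adjusted p = 3e-06). The median log2 fold change of the 8 genes was 0.32, 0.78, 0.39, -0.69 and 0.33 in these comparisons in turn, and on the TPM scale 0.14, 0.16, -0.08, -1.97 and -1.66. The comparisons share libraries and are given side by side.

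H2A.Z is encoded by H2AZ1 (gene 3015, chr4:99948088-99950275, minus strand, hg38) and H2AZ2 (gene 94239, chr7:44826889-44848126, minus strand), whose proteins differ at few residues. In the full-course libraries H2AZ1 was at 862, 764, 710, 667, 665, 690 and 696 TPM from D0 to D6, 537 and 523 at D7 and D8 and 28.9 at D12. In the split-table libraries it was at 846, 800, 716, 713, 690, 745 and 617 TPM from D0 to D6, 505 and 456 at D7 and D8 and 41.2 at D12. Both D12 libraries lay below every earlier library, and D7 and D8 lay below D0 to D6 without overlap. Between D8 and D12 H2AZ1 fell by 2.38 on the log2 scale (SE 0.12, adjusted p = 2.1e-09), to 49.7 ± 2.78 from 258 ± 9.82 CPM on the TMM scale (SD, n = 2 and 2). On the TPM scale the change was -3.78. From D0 to D8 the edgeR change of -0.19 was not called (adjusted p = 0.40), while limma on TPM called it lower (-0.81, adjusted p = 0.034).

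H2AZ2 had its lowest early level at D0 (134 and 95.2 TPM), was at 172 and 146 TPM on D1 and at 197 and 195 TPM on D5, and ended at 14.1 and 23.2 TPM on D12. In the edgeR fit without a term for the table of origin, it was the single gene of the 8 called from D0 to D4 to D6. With that term H1-10 (0.98, adjusted p = 0.0025), MACROH2A1 (0.30, adjusted p = 0.032) and H3-3A (0.32, adjusted p = 0.029) were called higher as well. Without the term H2AZ2 rose by 0.89 (SE 0.14, adjusted p = 9.3e-04), and by 0.74 on the TPM scale. From D0 to D8 it rose by 1.30 (SE 0.21, adjusted p = 0.016), and the call was lost without the full-course D0 library (1.52, adjusted p = 0.061) or the split-table one (1.10, adjusted p = 0.11). From D8 to D12 it fell by 1.88 (SE 0.17, adjusted p = 5.4e-07), with -2.09 and -1.69 in the 2 sets and -3.23 on the TPM scale. From D0 to D12 it fell by 0.59 (SE 0.16, adjusted p = 0.0055), and by 2.58 on the TPM scale. For D8 against D0 the TPM-scale change of H2AZ2 was 0.66 and was not called by limma (adjusted p = 0.095). From D4 to D6 to D8 it rose by 0.40 in edgeR (SE 0.13, adjusted p = 0.040) and was -0.08 on the TPM scale, and without any single library of the 8 the adjusted p was 0.058 to 0.223. The change from D0 to D12 was -0.38 (adjusted p = 0.083) without the full-course D0 library and -0.43 (adjusted p = 0.079) without the full-course D12 library.

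The make-up of H2A.Z mRNA moved with the days. H2AZ1 gave 86.6% and 89.9% of the summed H2AZ1 and H2AZ2 TPM at D0, 72.2% and 74.3% at D8 and 67.2% and 64.0% at D12. The range was 76.5% to 89.9% over the 14 libraries of D0 to D6 and 71.9% to 75.5% over the 4 of D7 and D8, with no overlap, and D12 lay below both. The summed level itself was 995 and 941 TPM at D0, 724 and 614 at D8 and 42.9 and 64.4 at D12. Within H2AZ2, the longest transcript, NM_138635, gave 32.8% to 37.7% of the TPM over D0 to D6, 44.6% to 47.6% at D7 and D8 and 42.4% and 44.9% at D12. The 6 libraries from D7 on thus lay above the 14 earlier ones. Transcript shares rest on the authors' assignment of shared reads and were not tested.

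MACROH2A1 (gene 9555, chr5:135334381-135401998, minus strand) encodes an H2A with a large macro domain. It was at 304 and 294 TPM at D0, 364 and 348 at D3, 333 and 280 at D6, 249 and 164 at D8 and 13.4 and 18.8 at D12. D7 and D8 lay below D0 without overlap, and both D12 libraries lay below all others. It fell by 2.19 from D8 to D12 (log2, SE 0.14, adjusted p = 1.7e-08) and by 2.07 from D0 to D12 (SE 0.14, adjusted p = 1.6e-08), with TPM-scale changes of -3.59 and -4.15. Between D0 and D8 its change was 0.13 by edgeR and -0.56 on the TPM scale, and neither was called. Transcript NM_138610, 1 of 31 listed for the gene, gave 69.8% to 88.5% of its TPM in the 18 libraries up to D8. At D12 it gave 21.0% in the full-course library and 58.9% in the split-table library, a spread too wide to state a level. MACROH2A2, the other gene of this kind, was at most at 0.18 TPM in any library.

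H2AX (gene 3014, chr11:119093874-119095465, minus strand) was at 96.0 and 173 TPM at D0, 128 and 230 at D1, 111 and 176 at D8 and 32.5 and 39.9 at D12. The split-table library was higher on all 10 days, so D0 to D8 overlapped throughout, and only D12 stood apart from every other day on the TPM scale. No comparison was called by edgeR in the fit without a term for the library set. With the table of origin as a term, H2AX rose by 0.74 from D0 to D8 (adjusted p = 0.029). For D12 against D0 the edgeR change without that term was 0.13 (SE 0.51, adjusted p = 0.83). It was 0.72 in the full-course set and -0.31 in the split-table set. On the TPM scale limma called H2AX lower at D12 than at D0 (-1.81, adjusted p = 0.0027) and than at D8 (-1.93, adjusted p = 0.0023). H2AX also carries the hairpin printed above, and mRNA that ends there has no poly(A) tail. Its share of H2AX mRNA was not tested.

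H2AJ (gene 55766, chr12:14774336-14778002, plus strand), a variant related to canonical H2A that is known from senescent cells, was the least abundant of the 8. It was at 8.16 and 11.5 TPM at D0, 8.64 and 12.5 at D6, 14.3 and 20.2 at D7, 12.2 and 18.1 at D8 and 9.30 and 10.1 at D12. D7 held its highest level in each set. From D4 to D6 to D8 it rose by 0.99 (SE 0.26, adjusted p = 0.016) and by 0.47 on the TPM scale, and without the split-table library of D8 the edgeR change was 0.49 (adjusted p = 0.48). From D0 to D12 it rose by 2.00 in edgeR (SE 0.34, adjusted p = 1.6e-04), while its difference on the TPM scale was 0.0012, which is 1.13 above the median of all genes there. For D12 against D8 the signs differed, with 0.76 (adjusted p = 0.068) by edgeR and -0.57 on the TPM scale. With the table of origin as a term the edgeR change was 0.84 (adjusted p = 0.0042), and that from D0 to D8 was 1.22 (adjusted p = 0.02).

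H1-10 (gene 8971, chr3:129314771-129316286, minus strand), a linker histone, had the widest range of the 8 before D12. In the full-course libraries it was at 24.1, 23.9, 17.8, 22.6, 24.1, 38.9 and 37.3 TPM from D0 to D6, 78.8 and 60.9 at D7 and D8 and 16.9 at D12. In the split-table libraries it was at 31.9, 47.8, 38.7, 51.5, 56.5, 85.0 and 94.6 TPM from D0 to D6, 176 and 151 at D7 and D8 and 31.5 at D12. D7 was the highest day in each set, but days next to each other in the order of levels overlapped because the split-table library was a median of 2.21 times the full-course one. With the table of origin as a term, edgeR called H1-10 for D4 to D6 against D0 (0.98, adjusted p = 0.0025) and D8 against D4 to D6 (1.39, adjusted p = 9.1e-05). It was also called for D12 against D8 (-0.60, adjusted p = 0.036). None of these was called in the edgeR fit without that term, to which the edgeR values below belong. For D12 against D8 that fit gave -0.79 (adjusted p = 0.37), while limma on TPM called H1-10 lower (-2.01, adjusted p = 0.021). From D0 to D8 H1-10 rose by 2.59 (SE 0.55, adjusted p = 0.030) and by 1.75 on the TPM scale, with 1.83 in the full-course set and 2.94 in the split-table set. That call was lost without the full-course D0 library (2.36, adjusted p = 0.14) or the split-table one (2.84, adjusted p = 0.12), and without the split-table library of D8 the change was 1.59 (adjusted p = 0.023). From D0 to D12 the change was 1.78 in edgeR (SE 0.75, adjusted p = 0.048) and -0.26 on the TPM scale, and without any single library of the 4 the adjusted p was 0.066 to 0.195.

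Of 13 other variant genes listed, 11 were in the tables and 4 passed the filter on low counts. CENPA, the H3 variant of centromeres, was at 53.6 and 59.0 TPM at D0, 37.8 and 40.4 at D8 and 0.910 and 1.34 at D12, and fell by 3.69 from D8 to D12 (SE 0.39, adjusted p = 2.7e-06).

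H3.3 comes from H3-3A (gene 3020, chr1:226061831-226072019, plus strand) and H3-3B (gene 3021, chr17:75776434-75779779, minus strand). In the full-course libraries H3-3A was at 555, 519, 552, 568, 530, 573 and 604 TPM from D0 to D6, 592 and 664 at D7 and D8 and 172 at D12. In the split-table libraries it was at 547, 641, 658, 695, 689, 682 and 659 TPM from D0 to D6, 620 and 611 at D7 and D8 and 218 at D12. On the TPM scale it was thus the flattest of the 8 up to D8, with a ratio of 1.34 between its highest and lowest library, and both D12 libraries lay below all others. In edgeR it rose by 0.83 from D0 to D8 (SE 0.17, adjusted p = 0.027) and by 0.48 from D4 to D6 to D8 (SE 0.16, adjusted p = 0.045), where the TPM-scale changes were 0.21 and 0.04. Both calls depended on single libraries: the first was lost without the full-course (0.78) or split-table (0.85) D0 library, each at an adjusted p of 0.17, and the second without the split-table library of D8 (0.39, adjusted p = 0.39) or any full-course library of D4, D5, D6 or D8. From D0 to D12 the change was 0.53 in edgeR (SE 0.20, adjusted p = 0.030; 0.062 to 0.128 without any single library of the 4) and -1.51 on the TPM scale. For D12 against D8 H3-3A was not called by edgeR (-0.28, adjusted p = 0.25), while limma on TPM called it lower (-1.72, adjusted p = 1.7e-06).

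H3-3B was at 162, 161, 149, 136, 124, 116 and 123 TPM from D0 to D6, 89.0 and 96.8 at D7 and D8 and 111 at D12 in the full-course libraries. In the split-table libraries it was at 154, 202, 161, 155, 145, 147 and 135 TPM from D0 to D6, 110 and 103 at D7 and D8 and 137 at D12. Its D12 libraries overlapped those of D6 and lay above both D8 libraries. For D8 against D0 its change was -0.04 by edgeR (adjusted p = 0.89) and -0.66 by limma on TPM, which called it lower (adjusted p = 0.043). From D8 to D12 H3-3B rose by 1.74 in edgeR (SE 0.21, adjusted p = 1.0e-05), to 553 ± 25.5 from 166 ± 29.2 CPM on the TMM scale (SD, n = 2 and 2), and by 0.30 on the TPM scale, where the adjusted p of limma was 0.13. It was the only gene of the 8 called higher in this comparison, and the change was 1.98 in the full-course set and 1.52 in the split-table set. From D0 to D12 it rose by 1.68 in edgeR (SE 0.21, adjusted p = 9.2e-06), whereas on the TPM scale it was -0.36, which is 0.76 above the median of all genes on that scale. With TPM rescaled to sum to the same total outside the globin genes, H3-3B was at 167 and 159 at D0, 130 and 147 at D8 and 299 and 337 at D12, and H3-3A at 572 and 564, 890 and 874, and 463 and 537.

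A share within a library does not depend on the scaling, and it set D12 apart. H3-3B gave 22.6% and 22.0% of the H3.3 TPM at D0, 12.7% and 14.4% at D8 and 39.2% and 38.6% at D12. Over the 18 libraries from D0 to D8 the share was 12.7% to 24.0%, so neither D12 library overlapped them. With 2 libraries a day, an exact permutation test of D12 against D8 could not go below a two-sided p of 0.333, and none was run. The summed H3.3 level was 717 and 702 TPM at D0, 761 and 714 at D8 and 282 and 354 at D12. The pseudogene H3P6 (chr2:174719800-174720858) was listed at 235 and 276 TPM at D0, 299 and 310 at D8 and 45.5 and 96.6 at D12. Adding it and 2 further H3 pseudogenes to H3-3A lowered the mean share of H3-3B to 15.7% at D0, 9.1% at D8 and 31.0% at D12, and kept D12 (33.0% and 29.1%) above the D0 to D8 range of 8.72% to 17.8%.

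The 2 library sets differed in these genes beyond D12. The split-table library was higher on all 10 days for H1-10 (ratio 1.32 to 2.53), H2AX (1.23 to 1.82) and H2AJ (1.09 to 1.49), and lower on 9 of 10 days for H2AZ2 and MACROH2A1. Among 9143 genes with a mean TPM of at least 5, 434 (4.75%) were higher in the split-table library on all 10 days. A median ratio at or above that of H1-10 was found for 0.569% of them, and at or above that of H2AX for 1.54%.

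The split-table libraries of D7 and D8 stand apart from the rest. Ribosomal RNA genes took 18.5% and 17.5% of their counts, against 1.03% to 4.08% in the other 18 libraries. Their summed TPM of 67 clustered histone genes was 1912 and 2034, against 140 to 322 in the 16 other libraries of D0 to D8, and 1024 and 1095 at D12. Of these clustered genes, 52 of 63 tested were higher at D8 than at D4 to D6 by edgeR, against 11.9% of all genes, and 4 on the TPM scale, against 4.14%. Without the split-table library of D8 edgeR called none of them, and without the full-course library of D6 it called 33. The same D8 library enters the D8 results of the 8 genes, and its part in them was not tested beyond leaving it out. Without it none of the 8 was called for D8 against D4 to D6 and 464 genes were called in all, in place of 3816. Within the full-course set, which holds neither of these libraries, H1-10 differed by 1.24, H2AJ by 0.74, H2AZ2 by 0.40 and H3-3A by 0.57 between D8 and D4 to D6.

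**Figure D1:**
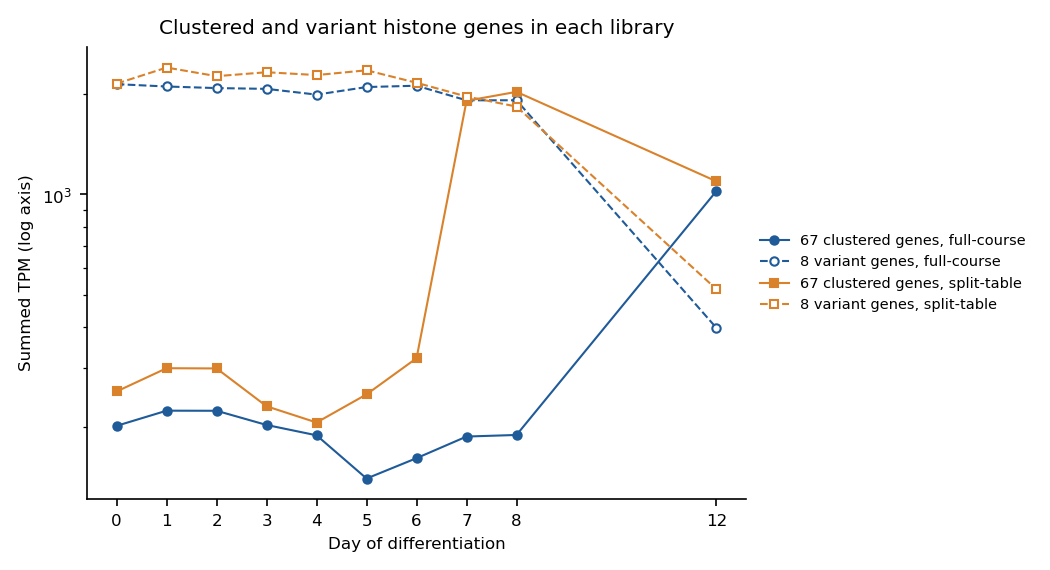
Summed TPM (log axis) of 67 clustered histone genes (filled) and of the 8 variant genes (open) by day of differentiation, with 1 point per library. The clustered genes reach 1912 and 2034 TPM in the split-table libraries of D7 and D8, and at D12 they lie above the variant genes in both sets.

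The factors that place the variants on DNA were examined as a list of 25 chaperones and remodellers. From D0 to D8, 5 were higher and none lower by edgeR, against 11.5% and 13.7% of all genes, while limma on TPM called 1 higher and 4 lower, against 5.01% and 29%. HIRA, the H3.3 chaperone of active genes, rose by 0.69 (SE 0.16, adjusted p = 0.037; TPM scale 0.07). ASF1A, which hands H3 and H4 to it, rose by 1.46 (SE 0.17, adjusted p = 0.0096; TPM scale 0.83). Without either D0 library none of the 25 was called, and without either D8 library 3 were higher, with 2 lower when it was the full-course one. HIRA was at 0.72 (adjusted p = 0.19) without the full-course D0 library, 0.63 (0.26) without the split-table one and 0.60 (0.057) without the full-course library of D8, and ASF1A at 1.52 (0.066) and 1.38 (0.087) without the D0 libraries in turn. Against D8, 5 were higher and 14 lower at D12 by edgeR, against 23.8% and 33.4%, while limma on TPM called none higher and 21 lower, against 8.38% and 53.6%. Without either D8 library or the full-course library of D12, edgeR called 3 higher. ANP32E, which removes H2A.Z, fell by 2.39 (SE 0.31, adjusted p = 1.9e-05), from 153 and 123 TPM at D8 to 6.29 and 13.7 at D12. ASF1B, the copy linked to dividing cells, fell by 5.37 (SE 0.28, adjusted p = 3.4e-09), and VPS72, the H2A.Z-binding subunit of the SRCAP complex, by 0.74 (SE 0.16, adjusted p = 0.0015). Other members of that complex rose in edgeR: SRCAP itself by 0.82 (SE 0.31, adjusted p = 0.036; TPM scale -0.58) and ZNHIT1 by 0.50 (SE 0.15, adjusted p = 0.012; TPM scale -0.96). With a library left out their highest adjusted p was 0.187 and 0.225. HIRA fell by 0.60 (SE 0.14, adjusted p = 0.0029) and CABIN1, of the same complex, by 2.40 (SE 0.32, adjusted p = 2.3e-05). UBN2, another member, rose by 1.89 (SE 0.21, adjusted p = 3.9e-06, TPM scale 0.36). UBN1 was not called by edgeR (0.03, adjusted p = 0.87) and was -1.33 on the TPM scale. DAXX, the H3.3 chaperone of heterochromatin, rose by 1.17 in edgeR (SE 0.14, adjusted p = 6.6e-06) but was -0.31 on the TPM scale. The median of the list was -0.74 against -0.20 for all genes in this comparison.

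Genes that phosphorylate H2AX, remove the mark or read it formed a list of 11. At D12, 2 were higher and 6 lower than at D8 by edgeR, against 23.8% and 33.4% of all genes, and 1 was higher and 9 lower by limma on TPM, against 8.38% and 53.6%. The kinases PRKDC and ATM fell by 3.03 (SE 0.59, adjusted p = 5.9e-04) and 2.05 (SE 0.47, adjusted p = 0.0020), and MDC1, the reader of the mark, fell by 2.37 (SE 0.14, adjusted p = 1.1e-08). Without the full-course library of D8 PRKDC was at -2.35 (adjusted p = 0.0073) and ATM at -1.43 (adjusted p = 0.033), and ATM was at -2.97 in the full-course set and -1.06 in the split-table set. Without any single library of the other 3, 1 gene of the list was higher in place of 2. PPM1D, a phosphatase of the damage response, rose by 1.99 (SE 0.25, adjusted p = 1.2e-05) and by 0.55 on the TPM scale. Of 15 genes of S phase and proliferation, 6 were higher and none lower from D0 to D8 by edgeR, against 11.5% and 13.7% of all genes, and limma on TPM called 1 higher and 1 lower, against 5.01% and 29%. Without either D0 library edgeR called none of the 15, and without the full-course library of D8 it called 2. All 15 were called lower at D12 than at D8 on both scales, against 33.4% of all genes by edgeR and 53.6% by limma on TPM, with a median log2 change of -4.76, against which H2AZ1 changed by -2.38.

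Cell identity was checked with markers. Of 14 erythroid marker genes 13 were higher at D8 than at D0 by edgeR, against 11.5% of all genes, and 11 on the TPM scale, against 5.01% (7 by edgeR without either D0 library), and their summed level went from 34198 and 33647 TPM at D0 to 633879 and 599705 TPM at D12, with HBB the most abundant. The 14 did not all rise to the end. At D12, 9 were higher and 2 lower than at D8 by edgeR, against 23.8% and 33.4% of all genes. On the TPM scale 5 were higher and 6 lower, against 8.38% and 53.6%. Of 14 markers of other blood cells, CD3E, PF4, PPBP and ELANE had no count in any library. TPSAB1, a mast cell tryptase, made up nearly all of their sum up to D6. It was at 527 and 1009 TPM at D0, 70.8 and 124 at D6 and 0.598 and 3.10 at D8. The remaining 13 markers summed to 7.07 and 2.77 TPM at D0. TPSAB1 thus moved with the days compared here, and its part in the results of the 8 genes was not tested.

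As a description of time courses, the genes most like each of the 8 were sought among the 9143 genes by Pearson's r of log2(TPM + 1) over the 10 days, taking the lower r of the 2 library sets. The days of the full-course set share a table, and those of the split-table set come from 3. On this scale limma called 65.7% of all genes lower at D12 than at D0. How far a high r rested on D12 alone was not tested, so the neighbours are not shown to be particular to a gene. The nearest were NDUFA8, LOC93622 and LSM5 for H2AZ1 (r of 0.998 and above) and CTPS1, ACTL6A and PPIL1 for MACROH2A1 (0.999 each). They were CENPH, NUF2 and HMMR for H3-3A (0.994 to 0.995) and CKAP2L, PLEKHF2 and NEK2 for H2AZ2 (0.992 to 0.994). H3-3B lay nearest to TRPV2 (0.954), TPM4 (0.939) and GGT1 (0.934). H2AX lay nearest to F8A2 (0.983), GAS2L1 and AGPAT1 (both 0.981), and H1-10 to KLF10 and C21orf58 (both 0.962) and MXD3 (0.956). H2AJ had the loosest neighbours, DMPK (0.891), C21orf58 (0.860) and PI4KAP1 (0.856).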

How the data were processed

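RNA from HUDEP-2 cells on D0 to D8 and D12 was sequenced by the authors, 2 libraries a day. Per the labels and the submitters' processing notes, reads were trimmed with Trimmomatic 0.38, aligned to hg38 with HISAT2 2.1.0 and quantified with StringTie 2.1.3b. The authors deposited 4 tables of 170322 RefSeq transcripts with unnormalized read counts and, beside them, TPM that they scaled for transcript length to 1000000 per library. How reads shared by transcripts or pseudogenes were divided is not given in the sources used here. Of the columns of values per library 40 were used, and 23 (FPKM, and a further set of D0 columns beside the D12 library) were not used. TPM are scaled within each library, so levels are set across tables, and the counts of all tables entered the same fits. Replicates are not numbered in the column names.

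Counts and TPM were summed by gene symbol. The 8 genes and all gene lists were chosen with earlier results of these data known. edgeR 4.0.16 (R 4.3.3; filterByExpr, TMM, glmQLFit and glmQLFTest, a coefficient per day) was fitted to all 20 libraries, and to the 4 libraries of D0 and D8 for D8 against D0, with Benjamini-Hochberg adjustment over all genes tested. Standard errors were obtained from the log2 fold change and the root of F. TPM-scale changes are from limma 3.58.1 on log2(TPM + 1), which understates the change of low genes. A count of 0 allows 3 counts, 0.0426 to 0.0575 CPM, and such limits cover counting error only, since reads carry no molecular identifiers. The scripts were tested on simulated data. The genes named are the 8, members of the lists, and the 3 genes most alike to each. Alternatives were DESeq2 1.42.0, edgeR's exact test, limma with pseudocounts of 1 and 0.1, upper-quartile scaling, TMM without globin or ribosomal RNA genes, a filter of 1 count in all or of 10 counts in each library, only the days compared or all 20 libraries, the table of origin as a term, and each library left out. Pseudogenes counted with H3-3A and TPM outside globin genes were added after seeing the data. Promoters and transcripts came from RefSeq (GRCh38.p14) and GENCODE. Protein sequences were not used here. Some genes of the lists enter the counts but are not reported here.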

Additional observations from a re-analysis of the deposited data

How the results depend on the processing

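No paired analysis was possible because the columns carry no replicate numbers. The library set, full-course or split-table, was fitted in its place as a term (the table of origin). No call of the 8 genes was lost under it, and these were gained: H1-10 (0.98, adjusted p = 0.0025), MACROH2A1 (0.30, 0.032) and H3-3A (0.32, 0.029) for D4 to D6 against D0, H2AX (0.74, 0.029) and H2AJ (1.22, 0.02) for D8 against D0, H1-10 (1.39, 9.1e-05) for D8 against D4 to D6, and H1-10 (-0.60, 0.036) and H2AJ (0.84, 0.0042) for D12 against D8. From D0 to D4 to D6, the 2785 genes called became 4809 with the table of origin as a term and 959 to 2460 with a library left out, and the 1 of the 8 genes called became 2 with DESeq2, 2 with upper-quartile scaling and 4 with the table term. From D0 to D8, the 3726 became 6224 in the fit of all 20 libraries and 364 to 4746 with a library left out, and the 3 of the 8 became 5 with the table term and 0 to 4 with a library left out (0 without either D0 library). From D4 to D6 to D8, the 3816 became 5908 and 5872 with limma (pseudocounts 1 and 0.1), 2418 with only the days compared, 6104 with the table term and 464 to 4014 with a library left out, and the 3 of the 8 became 0 to 3. From D0 to D12, the 7 of the 8 became 4 to 5 with a library left out. The counts of D12 against D8 (9608 and 4 of the 8) stayed within 1.5 times under all alternatives run.

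With limma at pseudocounts 1 and 0.1 these log2 changes turned: D8 against D0, MACROH2A1 (-0.56 in both); D8 against D4 to D6, H2AX (-0.086 in both), H2AZ2 (-0.078 in both) and H3-3B (-0.39 in both); D12 against D8, H2AJ (-0.57 and -0.61); D12 against D0, H1-10 (-0.26 and -0.27), H2AX (-1.81 and -1.84), H3-3A (-1.51 in both) and H3-3B (-0.36 in both). Their scale counts globin mRNA in the total. With a library left out, uncalled changes crossed 0: H2AX (-0.036 to 0.89) and H2AJ (-0.0048 to 0.57) for D4 to D6 against D0, MACROH2A1 (-0.025 to 0.28) and H3-3B (-0.23 to 0.13) for D8 against D0, H2AX (-0.18 to 0.76) and H3-3B (-0.14 to 0.22) for D8 against D4 to D6, H1-10 (-1.39 to 0.19) for D12 against D8 and H2AX (-0.27 to 0.65) for D12 against D0. The falls of H2AZ1, H2AZ2 and MACROH2A1 from D8 to D12 kept their direction and call under all alternatives run, with a highest adjusted p of 6.9e-04, 0.0017 and 0.0010. The lowest count of any of the 8 genes was 705.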

Other observations

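Genes of erythroid nuclear condensation were examined as a list of 13, of which 12 were tested. At D12, 5 were higher and 6 lower than at D8 by edgeR, against 23.8% and 33.4% of all genes, and 4 were higher and 8 lower by limma on TPM, against 8.38% and 53.6%. XPO7, a nuclear exporter known to be needed for erythroid nuclear maturation, was at 115 and 149 TPM at D8 and 571 and 771 at D12, and rose by 3.76 (SE 0.19, adjusted p = 2.1e-09), or by 2.33 on the TPM scale. RIOK3, an atypical kinase of late erythroblasts, was at 99.7 and 124 TPM at D8 and 374 and 494 at D12 and rose by 3.37 (SE 0.24, adjusted p = 5.7e-08; TPM scale 1.94). WDR26, a ubiquitin ligase subunit, rose by 2.85 (SE 0.16, adjusted p = 5.9e-09; TPM scale 1.39). LMNB1, which encodes lamin B1, fell from 117 and 63.1 TPM to 0.355 and 0.727, by 5.87 on the log2 scale (SE 0.29, adjusted p = 1.9e-09). MYC fell from 166 and 75.7 TPM to 3.47 and 4.82, by 3.40 (SE 0.29, adjusted p = 3.5e-07).

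Of 9 genes that process the stem-loop end of clustered histone mRNA, 1 was higher and 7 lower at D12 than at D8 by edgeR, against 23.8% and 33.4% of all genes, and 1 higher and 8 lower by limma on TPM, against 8.38% and 53.6%. LSM10, a subunit of the U7 particle, was at 30.1 and 25.3 TPM at D8 and 98.3 and 89.8 at D12, and rose by 3.24 (SE 0.21, adjusted p = 2.5e-08), or by 1.73 on the TPM scale. SLBP, which binds the stem-loop, fell by 1.74 (SE 0.21, adjusted p = 8.0e-06), and CPSF3, the nuclease that cuts beside it, by 3.26 (SE 0.23, adjusted p = 5.1e-08). In the same poly(A)-selected libraries the clustered gene H1-2 was at 31.4 and 130 TPM at D8 and 469 and 528 at D12, and 10 of 63 clustered genes tested were higher at D12 than at D8 by edgeR and none lower, against 23.8% and 33.4% of all genes, and 8 higher on the TPM scale, against 8.38%. Without the split-table library of D8 edgeR called 17 higher, and without the full-course one 7 higher and 10 lower. The median log2 change of these 63 was -0.75 by edgeR, against -0.20 for all genes.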
